A study of Mus musculus with 8 samples.

Results

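The 6 genes described here lie along the distal part of mouse chromosome 1: Catspere2, Lin9, Bpnt1, Lyplal1, Ints7 and A330023F24Rik, in that order. They were chosen by gene position together with measured values, the difference in signal between TNF-/- and TNF+/+ arrays, so their own differences are given as descriptions without a test. The 6 are among 19938 genes with a symbol on the array, and 9 probe sets are paired with them, 6 with one of the genes alone and 3 with 2 symbols each. Signals came from brain lysates of adult male mice, 2 to 4 months old, on Affymetrix Mouse Gene 1.0 ST arrays, with 4 biological replicates labelled TNF-/- and 4 labelled TNF+/+. The study set out to characterize brains that developed without the cytokine TNF. The labels give the strain C57BL/6 for the TNF+/+ mice and none for the TNF-/- mice, and they name neither the Tnf allele nor litters.

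The genes have unrelated roles. Catspere2 is named for the epsilon subunit of CatSper, the calcium channel of the sperm tail, and has a close relative and neighbour, Catspere1. Lin9 encodes a core subunit of MuvB, a complex that represses cell cycle genes together with the RB-like proteins and activates them together with MYBL2 and FOXM1. Ints7 encodes a subunit of Integrator, which acts with RNA polymerase II, cuts the ends of small nuclear RNAs and stops transcription early at many genes. Bpnt1 encodes a lithium-sensitive phosphatase that clears a by-product of sulfation and also acts on inositol phosphates, and Lyplal1 encodes a serine hydrolase related to the enzymes that remove palmitate from proteins. A330023F24Rik is a long non-coding RNA gene that carries the microRNA genes Mir29b-2 and Mir29c, whose products repress collagen genes and genes of DNA methylation.

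Array medians lay between 5.03 and 5.11 on the log2 scale, and 24% of the variance fell on a first principal component that set TNF+/+ arrays 3 and 4 (scores of 22.1 and 37.2) apart from the other 6 (-4.29 or lower). TNF+/+ array 1 had a mean of 6.90 over 6 cerebellar marker genes, against 5.05 to 5.24 in the other 7 arrays. Markers of neurons and astrocytes were above the 75th percentile of probe sets (4 of 4 and 4 of 4), as were the 3 measured of 4 for oligodendrocytes, while 10 of 12 male germ cell markers were below the 25th percentile, with list means of 3.75 to 3.79 under TNF-/- and 3.8 to 3.88 under TNF+/+. The oligodendrocyte list mean was 9.29 to 9.43 under TNF-/- and 9.42 to 9.74 under TNF+/+, with Mag at -0.39 ± 0.09 (SE), without overlap, Mog at -0.28 ± 0.12 and Mbp at -0.09 ± 0.06 (limma, adjusted p = 0.233, 0.472 and 0.592). Of the astrocyte markers, Gfap was at -0.34 ± 0.12, Aqp4 at -0.05 ± 0.09, Slc1a2 at 0.04 ± 0.07 and Slc1a3 at 0.16 ± 0.09 (SE, limma, adjusted p = 0.381, 0.859, 0.832 and 0.545). Meningeal list means were 6.67 to 6.81 under TNF-/- and 6.36 to 6.62 under TNF+/+, while those of microglia and endothelium overlapped. The part of these cell types in the members' values was not tested. Tnf signal was 5.67, 5.87, 5.92 and 6.21 in the TNF-/- arrays and 4.48, 4.93, 4.24 and 4.47 in the TNF+/+ arrays. The targeted gene thus went against the labels, by a log2 difference of 1.39 ± 0.16 (SE; limma, adjusted p = 0.0278). Without any 1 array other than TNF+/+ array 2, or without TNF+/+ arrays 3 and 4, Tnf no longer passed, with differences of 1.21 to 1.47. The deleted part of Tnf, and so whether the probes lie in it, was not given in the sources used here. Whether the group labels were exchanged cannot be told from these data, and an exchange would reverse every direction printed. All directions below are those of arrays as labelled TNF-/- and TNF+/+. Tnf lies on chromosome 17, and limma called 29 of all 35556 probe sets (0.0816%) at an adjusted p under 0.05.

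Catspere2 signal, from the probe set paired with this gene alone, was 7.31, 7.49, 7.47 and 7.53 in TNF-/- arrays 1 to 4 and 6.15, 6.49, 6.38 and 6.20 in TNF+/+ arrays 1 to 4. Every TNF-/- array was above every TNF+/+ array, with a gap of 0.82 between the groups on the log2 scale. The group means were 7.45 ± 0.10 (SD, n = 4) and 6.31 ± 0.16 (SD, n = 4), a difference of 1.14 or 2.21-fold, and 8.84 times the pooled SD within groups. A further probe set is paired with both Catspere1 and Catspere2, so its signal belongs to neither alone. It read 7.31, 7.33, 7.71 and 7.57 in the TNF-/- arrays and 6.12, 6.01, 5.63 and 5.78 in the TNF+/+ arrays, again with no overlap, and differed by 1.59, or 3.01-fold. The order of arrays within a group was not shared by these 2 probe sets: after the group means were taken out, Pearson's r between them was 0.06 over the 8 arrays. In bulk tissue, a different number of cells of a type and a different amount of RNA per cell cannot be told apart.

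The RefSeq table of GRCm38.p6 gives a promoter window for 5 of the 6 genes, Lin9 not being among them. The 250 bases before the start are printed for Catspere2 and Lyplal1, which were higher in TNF-/- arrays, and for Ints7, which was lower, because they held matches to motifs searched on both strands: TGACGTCA (cAMP response element), the NRF1 motif, the CCAAT box, the GC box GGGCGG, the CHR element of MuvB targets TTTGAA and the NF-kB consensus. Capitals mark the matches, and all sequences run 5′ to 3′ on the strand of the gene.
Catspere2, chr1:177991148-177991397, plus strand: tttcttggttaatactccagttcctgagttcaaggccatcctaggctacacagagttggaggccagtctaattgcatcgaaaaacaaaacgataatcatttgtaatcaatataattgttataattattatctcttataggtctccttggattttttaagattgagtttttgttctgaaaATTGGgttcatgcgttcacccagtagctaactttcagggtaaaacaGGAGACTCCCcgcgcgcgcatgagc
Lyplal1, chr1:186117311-186117560, minus strand: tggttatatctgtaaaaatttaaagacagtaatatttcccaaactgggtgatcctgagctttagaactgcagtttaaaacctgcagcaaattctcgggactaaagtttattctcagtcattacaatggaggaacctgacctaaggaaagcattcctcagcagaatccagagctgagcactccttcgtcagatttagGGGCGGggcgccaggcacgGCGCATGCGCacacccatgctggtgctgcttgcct
Ints7, chr1:191575386-191575635, plus strand: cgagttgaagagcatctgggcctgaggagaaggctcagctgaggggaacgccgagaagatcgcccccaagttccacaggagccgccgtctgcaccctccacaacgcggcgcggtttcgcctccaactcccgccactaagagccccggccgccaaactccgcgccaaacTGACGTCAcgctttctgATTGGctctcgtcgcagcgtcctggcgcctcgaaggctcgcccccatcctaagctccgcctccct
In the Catspere2 window, the NF-kB consensus, the motif of the transcription factor that TNF signalling activates, began 25 bases before the start and CCAAT 71 bases before it. NF-kB matches were in 7.25% of 32851 promoter windows of the same length, and CCAAT in 33.8%. RefSeq gives a later start for Catspere2 as well, from which the same 2 matches lie 62 and 108 bases away. Lyplal1 held the NRF1 motif (0.782% of windows) 35 bases and a GC box (32.7%) 54 bases before its start, and Ints7 the cAMP response element (1.55%) 82 bases and CCAAT 65 bases before its start. No match to any of the 6 motifs was in the windows of Bpnt1 and A330023F24Rik, and TTTGAA (16% of windows) was in none of the 5 genes' windows. The share of G and C was 39.2% for Catspere2, 47.2% for Lyplal1, 54.8% for A330023F24Rik, 61.2% for Bpnt1 and 65.2% for Ints7, against a median of 52.4% over all windows. A match describes letters only, and binding was not measured.

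Of the genes that act on transcription, Lin9 was higher and Ints7 lower in the TNF-/- arrays. Lin9 signal was 5.06, 5.08, 5.16 and 5.05 in the TNF-/- arrays and 4.69, 4.63, 4.92 and 4.68 in the TNF+/+ arrays. The groups did not overlap, although TNF+/+ array 3 came within 0.13 of the lowest TNF-/- array. The means were 5.09 ± 0.05 and 4.73 ± 0.13 (SD, n = 4), a difference of 0.36 or 1.28-fold, at a signal below that of the median probe set (5.08 over all probe set means, 4.91 for Lin9).

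Ints7 signal was 7.91, 7.85, 8.04 and 7.94 in the TNF-/- arrays and 8.48, 8.39, 8.4 and 8.17 in the TNF+/+ arrays. TNF+/+ array 4 was the lowest of its group, and the gap to the highest TNF-/- array was 0.13. The means were 7.94 ± 0.08 and 8.36 ± 0.13 (SD, n = 4), which puts Ints7 1.34-fold lower in the TNF-/- arrays. Without TNF+/+ arrays 3 and 4 the difference was -0.50 instead of -0.42.

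The pair of enzyme genes also ran in opposite directions, with only 3 measured genes between them. Bpnt1, the phosphatase gene, read 8.82, 8.82, 8.99 and 8.82 in the TNF-/- arrays and 9.40, 9.28, 9.45 and 9.74 in the TNF+/+ arrays. TNF-/- arrays 1, 2 and 4 were alike, with array 3 above them, and TNF+/+ array 4 was the highest of all. The means were 8.86 ± 0.09 and 9.47 ± 0.19 (SD, n = 4), so that Bpnt1 was 1.52-fold lower in the TNF-/- arrays; the difference of -0.61 was -0.48 without TNF+/+ arrays 3 and 4.

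Lyplal1, the hydrolase gene, read 7.27, 7.48, 7.62 and 7.61 in the TNF-/- arrays and 7.02, 7.0, 6.88 and 7.06 in the TNF+/+ arrays. TNF-/- array 1 was the lowest of its group and still 0.21 above the highest TNF+/+ array. The means were 7.49 ± 0.17 and 6.99 ± 0.08 (SD, n = 4), a difference of 0.51 or 1.42-fold.

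The last gene, A330023F24Rik, read 8.19, 8.20, 8.32 and 8.17 in the TNF-/- arrays and 8.73, 8.59, 8.59 and 8.62 in the TNF+/+ arrays. Both groups were tight, with ranges of 0.15 and 0.14 and a gap of 0.26 between them. The means were 8.22 ± 0.07 and 8.63 ± 0.07 (SD, n = 4), 1.33-fold lower in the TNF-/- arrays. Signal at the microRNAs inside this gene did not have that direction. The mature 3p microRNAs of the locus are printed here from RefSeq, GRCm38.p6, with bases 2 to 8, the seed that pairs with targets, in capitals, together with that of Mir29a on chromosome 6, because all of them share 1 seed.
miR-29b-3p, from Mir29b-2, chr1:195037091-195037113, plus strand: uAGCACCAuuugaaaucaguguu
miR-29c-3p, from Mir29c, chr1:195037600-195037621, plus strand: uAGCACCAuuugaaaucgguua
miR-29a-3p, from Mir29a, chr6:31062673-31062694, minus strand: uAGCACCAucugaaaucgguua
Counted from 1 at the 5′ end, miR-29b-3p and miR-29c-3p differ by A18G, G21U and U22A over their first 22 bases, and miR-29a-3p and miR-29c-3p by C10U. The array does not separate mature microRNAs from the transcripts that carry them.

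A probe set paired with both Mir29b-2 and A330023F24Rik read 8.51, 8.41, 8.38 and 8.30 in the TNF-/- arrays and 8.44, 8.4, 7.93 and 7.62 in the TNF+/+ arrays. The groups overlapped, since TNF+/+ arrays 1 and 2 lay among the TNF-/- arrays and arrays 3 and 4 below all of them. Its difference of 0.30 was 0.14 without TNF+/+ array 4 and -0.020 without arrays 3 and 4, the same 2 arrays that stood apart on the first principal component. A probe set paired with Mir29c and A330023F24Rik read 9.89, 9.85, 10.05 and 10.01 in the TNF-/- arrays and 9.93, 9.61, 9.71 and 9.27 in the TNF+/+ arrays. These groups overlapped as well, and the difference of 0.32 was 0.20 without TNF+/+ array 4. So in 1 gene the probe set of the host RNA alone was lower in every TNF-/- array, while the 2 probe sets shared with its microRNAs were, on average, higher there.

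**Figure D1:**
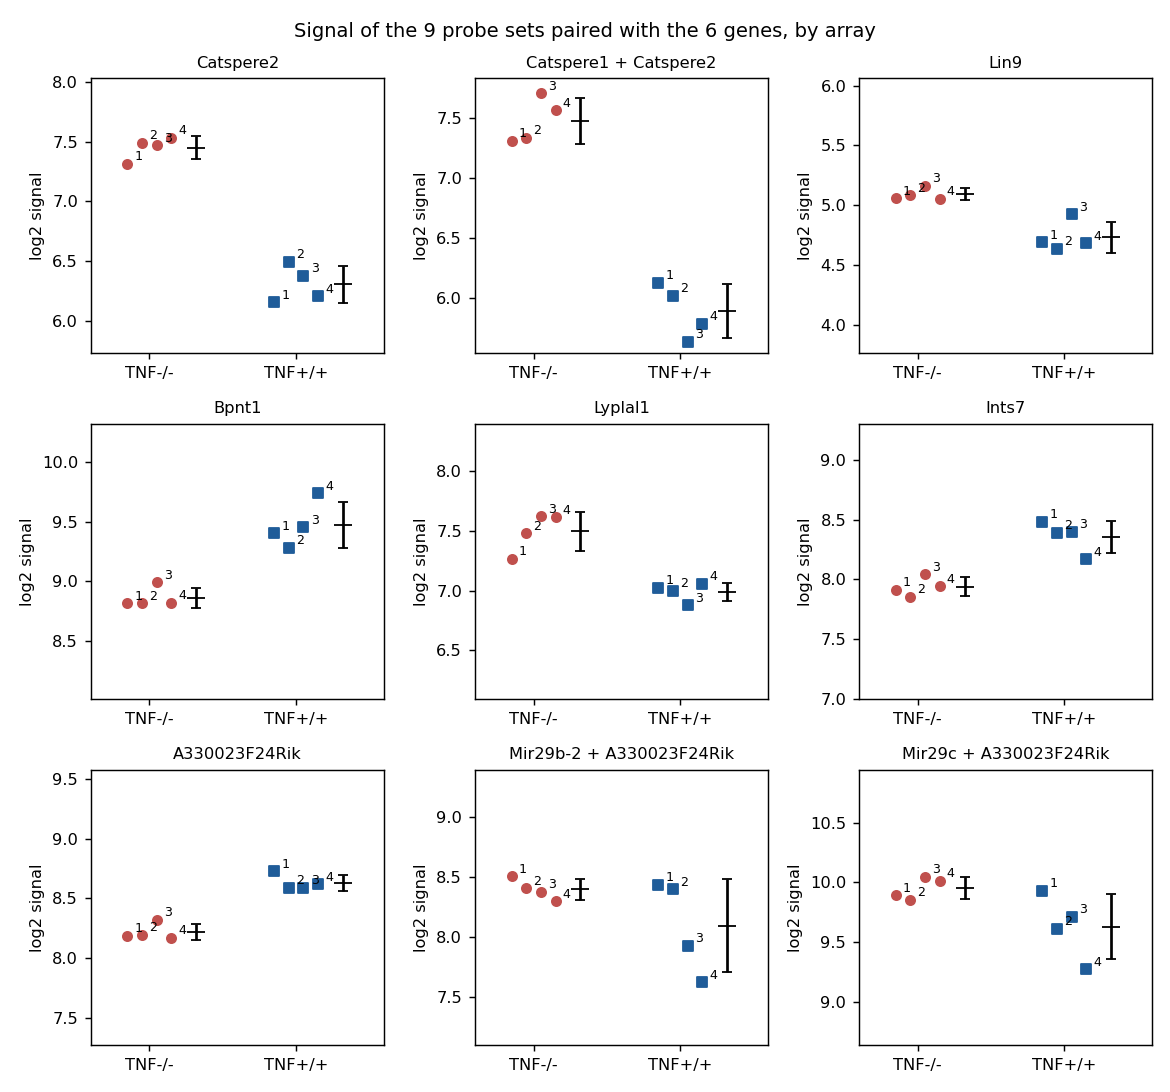
Log2 signal (vertical axis, each panel spanning the same width) of the 9 probe sets paired with the 6 genes, in 4 TNF-/- arrays (circles) and 4 TNF+/+ arrays (squares); digits are the replicate numbers and black bars the mean with the SD. The groups overlap only for the 2 probe sets shared with Mir29b-2 and Mir29c, where TNF+/+ array 4 is lowest at 7.62 and 9.27.

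The 6 genes' own probe sets showed no overlap between groups in 6 of 6 cases, 3 higher and 3 lower in TNF-/- arrays. Over all 19938 genes 7.66% had no overlap (4.16% higher and 3.5% lower), as had 6.63% of all probe sets, and nothing can be read from the members' count, since this contrast helped to choose them.

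Variation within the groups was small, and its correlation between pairs of the genes was mostly weak. Among the 15 pairs of the 6 genes, Pearson's r of the deviations from the group means had a median of 0.14 and ran from -0.48 (Bpnt1 with Ints7) to 0.54 (Ints7 with A330023F24Rik), with 11 of 15 above 0. These values rest on 8 arrays, in which all genes of an array share its RNA and hybridisation. TNF-/- array 3 had the highest median of all arrays (5.11). It gave the highest signal of its group for 5 of the 6 genes, Catspere2 being the exception. This held for genes that were higher and for genes that were lower in TNF-/-. Ints7 and the probe set shared by Mir29c and A330023F24Rik followed each other most closely, with r = 0.95 for the deviations.

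**Figure D2:**
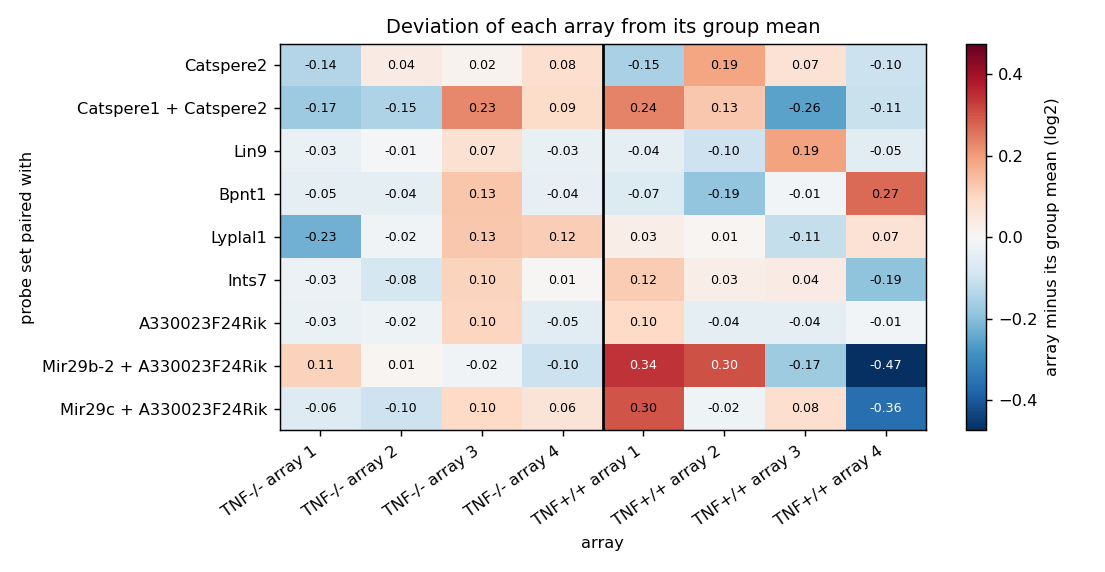
Signal of each array minus the mean of its group (log2, colour and printed value) for the 9 probe sets (rows) and 8 arrays (columns, TNF-/- left of the line). TNF-/- array 3 is above its group mean in 8 of the 9 rows, and the farthest departures are in TNF+/+ array 4 of the probe sets shared by A330023F24Rik with Mir29b-2 (-0.47) and with Mir29c (-0.36).

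Genes whose signal followed that of Catspere2 over the 8 arrays were found across the genome. With all arrays, Pearson's r was highest for Dnajc6 (0.98), which encodes the clathrin-uncoating factor auxilin, Abitram (0.98), Spock2 (0.98), which encodes a proteoglycan of the extracellular matrix, Hap1 (0.98), which encodes a partner of huntingtin, and Zcchc24 (0.98). It was lowest for Nptn (-0.99), which encodes the synaptic adhesion protein neuroplastin, Stard10 (-0.97), A330023F24Rik (-0.97), Cthrc1 (-0.97) and Trim12a (-0.96). Of these 10 genes only A330023F24Rik lies on chromosome 1. Among 19937 genes, 30 had r of at least 0.95 and 13 of at most -0.95. With 4 arrays on each side, such values mostly repeat the split into groups. After the group means were removed, r with Catspere2 was 0.91 for Zcchc24, 0.88 for Abitram, 0.81 for Spock2, 0.63 for Hap1 and 0.59 for Dnajc6. It was -0.88 for Stard10, -0.84 for Nptn, -0.64 for Trim12a, -0.44 for A330023F24Rik and -0.39 for Cthrc1. These 10 genes were picked by r over the same arrays, so the values are partly a product of that choice. The other members had an r over all arrays of 0.92 (Lyplal1), 0.90 (Lin9), -0.88 (Ints7) and -0.93 (Bpnt1), and of 0.25, 0.13, 0.14 and -0.43 after the group means were removed.

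The genes around the members were examined next, using the order of measured genes in GRCm38.p6. From Catspere2 to A330023F24Rik there are 119 measured genes between the ends, and the stretch was taken with 25 more before Catspere2 and the 3 that remain after A330023F24Rik, which leaves 143 genes without the members. None of the 143 passed over all probe sets (limma, lowest adjusted p = 0.193), against 10 of 19938 genes (0.0502%), and Significance Analysis of Microarrays (SAM) called 0 as well. An unadjusted p under 0.05 was reached by 22 of 143 (15.4%), against 11.7% of all genes. Of the 22, 14 were higher in the TNF-/- arrays and 8 lower, against 7.37% and 4.28% of all genes in those directions. Groups did not overlap for 15 of the 143 (10.5%), against 7.66%. The median difference was 0.01 in the stretch and -0.01 over all genes. Of the stretch genes 76 were higher and 67 lower in the TNF-/- arrays, and over all genes 9532 were higher and 10406 lower. Since the members were taken out of this stretch for their difference, these shares leave out genes that would have raised them.

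Within the stretch the 22 genes were unevenly placed. Between the first and the last member, 21 of 115 were at an unadjusted p under 0.05 (18.3%), while 1 of the 25 genes before Catspere2 was. Those 25 include dim olfactory receptor genes, with signals as low as percentile 4.95 of probe sets, and genes as bright as percentile 96.2. The part of signal level in this placement was not tested. The segment from Catspere2 to Lin9 had 5 of 17, that from Lin9 to Bpnt1 8 of 45, that from Bpnt1 to Lyplal1 0 of 3, that from Lyplal1 to Ints7 6 of 27 and that from Ints7 to A330023F24Rik 2 of 23. Cut into blocks of 50 consecutive measured genes, chromosome 1 had its highest share, 23.4% or 11 of 47 without the members, in the block from Hhipl2 to Rd3 that holds Bpnt1, Lyplal1 and Ints7. The block before it, with Lin9, had 18.4%, while the Catspere2 block had 10.2% and the last block, with A330023F24Rik, 4.76%. The blocks with none of the 6 genes had 6 to 18%. The members that mark these segments and blocks were chosen with this contrast on the same arrays, so the shares are descriptions only. The rest of chromosome 1, without the stretch and the members, had 119 of 973 (12.2%), and whole chromosomes ran from 8.89% for chromosome 19 to 15.6% for chromosome 12. Of the genes brighter than the median gene 15.6% were at an unadjusted p under 0.05, and of the dimmer ones 7.74%; in the stretch these shares were 19.2% (15 of 78) and 10.8% (7 of 65).

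**Figure D3:**
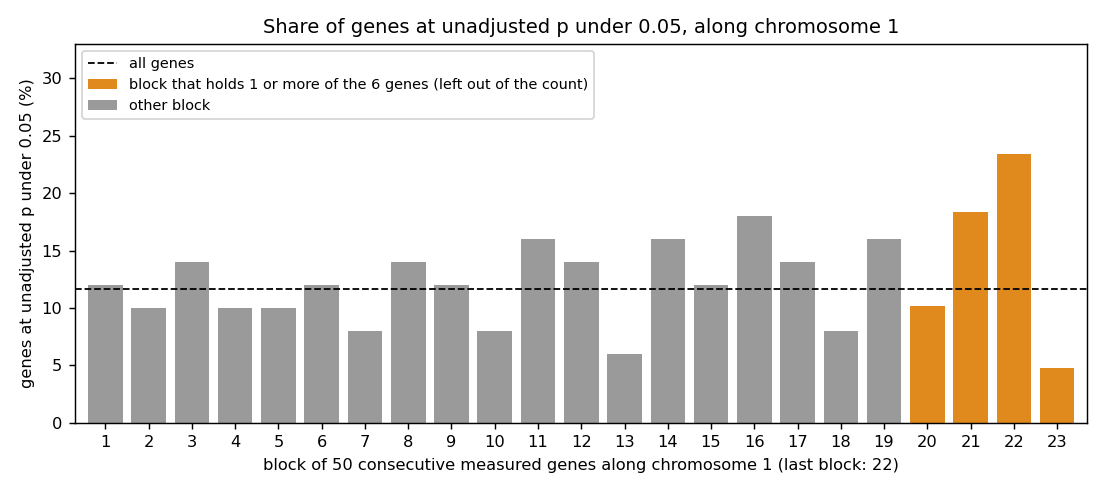
Percentage of genes at an unadjusted p under 0.05 by limma (bars, from 0) in consecutive blocks of 50 measured genes along chromosome 1, the 6 genes left out, with orange for blocks that hold any of them and the dashed line for all genes at 11.7%. The highest bar, at 23.4%, is the block with Bpnt1, Lyplal1 and Ints7, and the last block, of 22 genes, is at 4.76%.

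The 10 genes of the stretch with the smallest p had differences between 0.22 and 0.45 in size, and none passed (limma, adjusted p = 0.193 to 0.311). Tatdn3, which encodes a putative DNase of the TatD family, read 5.70, 5.64, 5.68 and 5.91 in the TNF-/- arrays and 6.06, 6.18, 6.09 and 6.39 in the TNF+/+ arrays, a difference of -0.45 ± 0.09 (SE). The groups did not overlap for Tatdn3. Flvcr1, a haem exporter gene 3 measured genes before it, ran the other way, at 8.0, 7.97, 7.95 and 8.07 against 7.70, 7.77, 7.45 and 7.41, a difference of 0.42 ± 0.09 (SE) that was 0.26 without TNF+/+ arrays 3 and 4. Another probe set of Flvcr1 differed by 0.23 ± 0.09 (SE).

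Tgfb2, which encodes the growth factor TGF-beta 2, is the gene next after Lyplal1 and differed in the same direction, by 0.41 ± 0.10 (SE), with 5.53, 5.63, 5.39 and 5.34 in the TNF-/- arrays and 5.21, 5.20, 4.95 and 4.92 in the TNF+/+ arrays. Iars2, the mitochondrial isoleucyl-tRNA synthetase gene 3 measured genes before Bpnt1, was lower as Bpnt1 was, with a difference of -0.27 ± 0.07 (SE), at 7.18, 7.35, 7.17 and 7.35 against 7.46, 7.59, 7.5 and 7.57. In both genes the groups did not overlap. The motor protein gene Kif26b, 5 genes after Catspere2, differed by 0.28 ± 0.07 (SE), and by 0.08 ± 0.10 in its other probe set. The others were Gm10516 (-0.31 ± 0.07), Sccpdh (-0.28 ± 0.08), 1700034H15Rik (0.32 ± 0.09), the potassium channel gene Kcnk2 (-0.31 ± 0.09, or -0.20 without TNF+/+ arrays 3 and 4) and the homeobox gene Hlx (-0.22 ± 0.06, all SE).

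The closest neighbours differed in both directions. The 3 measured genes on each side of each member make 33 genes, of which 5 were at an unadjusted p under 0.05, against 11.7% of all genes: Iars2, Tgfb2, Acbd3, Pacc1 and 1700034H15Rik. Of 6 neighbours each, 4 had the direction of Catspere2, 2 that of Lin9, 4 that of Bpnt1, 3 that of Lyplal1, 1 that of Ints7 and 2 that of A330023F24Rik. Around Catspere2 none of the 6 was, and their differences ran from -0.14 (Zbtb18) to 0.18 (Desi2), against 1.14 in Catspere2; Adss, next before it, was at 0.01 ± 0.08 and Desi2, next after it, at 0.18 ± 0.09 (SE; limma, adjusted p = 0.964 and 0.506). Leaving out TNF+/+ array 3 put Desi2 at 0.10, and leaving out arrays 3 and 4 of TNF+/+ put it at 0.07. Around A330023F24Rik none of 6 was either: Cd34, the marker gene of endothelial and blood stem cells just before it, was at -0.03 ± 0.11 and Cd46, a complement regulator gene just after it, at 0.18 ± 0.17 (limma, adjusted p = 0.934 and 0.731). Leaving out TNF+/+ array 4 put Cd46 at 0.02 and leaving out TNF+/+ array 2 put it at 0.33, while it was at -0.11 without TNF+/+ arrays 3 and 4, and Cd34 too changed sign between settings, from -0.11 to 0.09. Parp1 and Mixl1, on either side of Lin9, were at -0.03 ± 0.05 and -0.10 ± 0.06 (limma, adjusted p = 0.855 and 0.564), and Acbd3, a Golgi protein gene one further on, at 0.29 ± 0.09 (adjusted p = 0.361). Eprs, next after Bpnt1, was at -0.08 ± 0.06, and the zinc and manganese transporter gene Slc30a10, next before Lyplal1, at 0.11 ± 0.06 (limma, adjusted p = 0.647 and 0.551). Dtl and Lpgat1, beside Ints7, were at 0.04 ± 0.06 and 0.05 ± 0.06 (limma, adjusted p = 0.854 and 0.791).

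**Figure D4:**
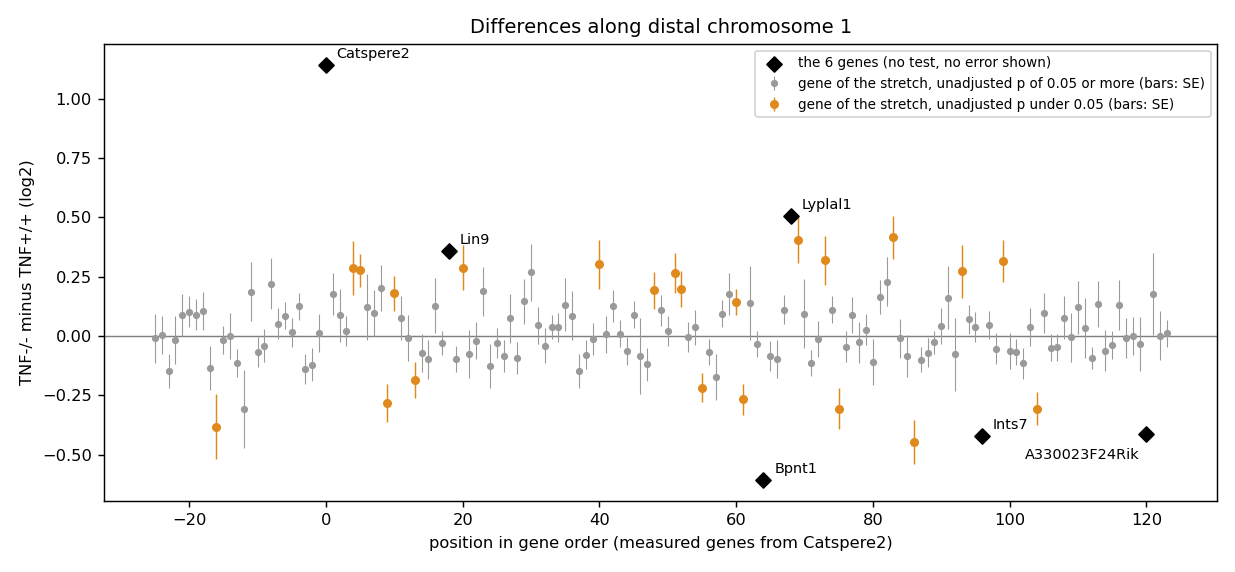
Difference between TNF-/- and TNF+/+ arrays (log2, vertical axis) for 143 genes of distal chromosome 1 with their SE, and for the 6 genes (black diamonds), in gene order from Catspere2 (horizontal axis, counted in measured genes). Catspere2 stands at 1.14 between neighbours of 0.01 and 0.18, and the 22 genes in orange are at an unadjusted p under 0.05.

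Genes that work with the members were compared in the same fit. Over 6 lists, 0 of 89 measured genes passed over all probe sets (limma; 0 by SAM) and 11 were at an unadjusted p under 0.05 (12.4%, against 11.7% of all genes), 8 higher and 3 lower in the TNF-/- arrays. That count was 5 without TNF-/- array 2, 2 without array 3 and 4 without array 4. It was 5 and 7 without TNF+/+ arrays 3 and 4 in turn. The shares of all genes were lower too, at 9.18%, 7.76%, 9.13%, 9.21% and 10.2% in the same order. Without TNF-/- array 1 the count rose, with 12.9% of all genes at that threshold. It fell less far without TNF+/+ array 1 or array 2. Of the CatSper channel, 10 of 14 listed genes were measured, 7 of them below the 25th percentile of probe sets, and their median difference was -0.01. The pore subunit gene Catsper1 was at -0.04 ± 0.06 (SE; limma, adjusted p = 0.848). Catsper2, with a signal of 5.82 ± 0.12 under TNF-/- and 5.71 ± 0.19 under TNF+/+ (SD, n = 4), was at 0.11 ± 0.10 (SE, limma, adjusted p = 0.708). Catsperd, the gene with the smallest p, was at -0.14 ± 0.06 (SE, limma, adjusted p = 0.442). No measured subunit gene stood near the difference of Catspere2, and Catspere1 has no probe set of its own.

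In the list of MuvB and its cell cycle targets, 1 of 21 was higher and 1 lower at an unadjusted p under 0.05 (7.37% and 4.28% of all genes were), with a median of 0.04. Lin54, which encodes the DNA-binding subunit of MuvB, read 7.27 ± 0.04 under TNF-/- and 7.01 ± 0.10 under TNF+/+ (SD, n = 4) without overlap, a difference of 0.25 ± 0.06 (SE) in the direction of Lin9 (limma, adjusted p = 0.257). Rbl2, the RB-like partner gene, was at 0.19 ± 0.09, and the proliferation marker Mki67, below the 25th percentile of signal, at -0.16 ± 0.07 (limma, adjusted p = 0.501 and 0.441). Leaving out TNF+/+ array 3 put Rbl2 at 0.12, and leaving out arrays 3 and 4 of TNF+/+ put it at 0.03.

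Of the 16 measured Integrator genes other than Ints7, 11 were higher and 5 lower in the TNF-/- arrays, with a median of 0.11, and 4 were at an unadjusted p under 0.05, all higher (7.37% of all genes were): Nabp1 at 0.32 ± 0.12 (SE), Ints12 at 0.25 ± 0.10, Ints8 at 0.19 ± 0.07 and Ints9 at 0.18 ± 0.07 (limma, adjusted p = 0.396, 0.42, 0.393 and 0.445). The count of 4 was 1 after quantile normalization and 1 without TNF-/- array 3. It was 2 each without TNF-/- array 2, TNF-/- array 4, TNF+/+ array 3 and TNF+/+ array 4. Without TNF-/- array 1 it was 5, and without TNF+/+ array 1 or array 2 it was 3. The share of all genes was 9.86% after quantile normalization and 7.76% without TNF-/- array 3, against 11.7% with all arrays as deposited. The dimmest of the 16, Ints14, was at percentile 60.1 of probe set signal. Of the 9969 genes brighter than the median gene, 6431 were higher and 3538 lower in the TNF-/- arrays, with a median of 0.05. At an unadjusted p under 0.05, 1215 of these were higher and 337 lower. The part of signal level in the Integrator values was not tested.

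For sulfate and inositol phosphate metabolism 2 of 10 were higher at an unadjusted p under 0.05 and 0 lower (7.37% and 4.28% of all genes were), Inpp4a (0.21 ± 0.08, SE) and Inpp4b (0.16 ± 0.07), both lipid phosphatase genes, with values of 0.09 and 0.10 without TNF+/+ arrays 3 and 4 (limma, adjusted p = 0.433 and 0.457 with all arrays). Inpp5a, with the third smallest p, was at 0.10 ± 0.09, and at 0.04 without TNF+/+ array 4. For protein thioesterases and palmitoyltransferases 1 of 14 was lower and 0 higher at that threshold, Abhd17a (-0.32 ± 0.14, or -0.19 without TNF+/+ arrays 3 and 4; limma, adjusted p = 0.462), while Lypla2, a close relative of Lyplal1, was at 0.16 ± 0.07 and Zdhhc8 at -0.18 ± 0.09 (adjusted p = 0.479 and 0.527).

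For miR-29, 1 of 18 measured genes was at an unadjusted p under 0.05 (11.7% of all genes were), the basement membrane collagen gene Col4a1 at 0.20 ± 0.07 (SE), with Col1a2 at 0.15 ± 0.09 and Tet2, a DNA demethylation gene, at 0.16 ± 0.11 (limma, adjusted p = 0.387, 0.552 and 0.611). Leaving out TNF-/- array 1 put Tet2 at 0.10, and leaving out TNF+/+ array 4 put it at 0.09. The microRNA genes of the other locus, on chromosome 6, were at 0.01 ± 0.14 (Mir29a) and 0.07 ± 0.08 (Mir29b-1; limma, adjusted p = 0.983 and 0.766). Of the other listed collagen genes, Col4a2 was at 0.13 ± 0.09, Col1a1 at 0.02 ± 0.08, Col5a2 at 0.01 ± 0.06 and Col3a1 at -0.07 ± 0.06 (SE, limma, adjusted p = 0.629, 0.957, 0.952 and 0.7). Meningeal markers, which include fibroblast genes, had list means of 6.67 to 6.81 in the TNF-/- arrays and 6.36 to 6.62 in the TNF+/+ arrays. The part of these markers in the collagen values was not tested.

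**Figure D5:**
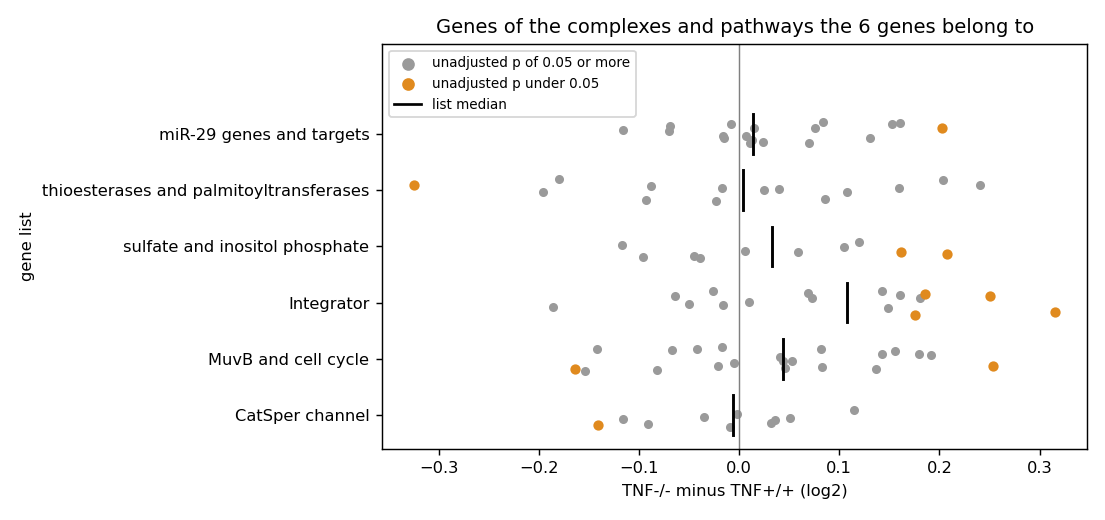
Difference between TNF-/- and TNF+/+ arrays (log2, horizontal axis) for the measured genes of 6 lists of partners of the 6 genes (vertical axis); each point is a gene, orange at an unadjusted p under 0.05, and black lines are list medians. Medians run from -0.01 for the CatSper channel to 0.11 for Integrator, and all points lie between -0.32 and 0.32.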

How the data were processed

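RNA of 8 mouse brains was measured on 1 array each. The deposited table holds the authors' log2 signal of 35556 probe sets; GCOS, GCRMA and Partek are listed in the submitters' processing notes. The log2 scale was read from the values (2.83 to 14.1). The values were used as deposited, without a filter. Titles gave the groups and replicate numbers, and the columns carry sample accessions. Names came from the platform annotation (21789 with 1 symbol, 1621 with several, 12146 not listed). A gene is its probe set with the highest mean, and 19853 of 19938 genes were ordered by the RefSeq table of GRCm38.p6, none of whose gene coordinates is printed.

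The comparison used lmFit and eBayes of limma 3.58.1 (R 4.3.3), two-sided, with p-values adjusted by Benjamini-Hochberg across the whole table; calls are at an adjusted p under 0.05, and differences are TNF-/- minus TNF+/+. SE is limma's moderated standard error. In a simulated table of 35556 probe sets with independent normal noise, limma recovered 42% of changes of 0.5 and 89% of changes of 1, with 6.43% false calls. The real arrays share variation that this noise lacks, so these rates may not hold for them. SAM, which the series' design text names, used all 70 assignments. The members, lists, stretch and alternatives were chosen with earlier results of these data known. Named genes are the members, the 10 stretch genes with the smallest p, the 3 nearest genes on each side of each member, the 3 of each list with the smallest p, the 10 most like Catspere2 (5 at each end of r), and Tnf. Members of counts of 5 or fewer, the other collagen genes of the miR-29 list, Catsper1, Catsper2, Mir29a and Mir29b-1 were named after their values were seen. Other normalizations, filters, variance models, a replicate block and leaving out arrays were tried. Plots used matplotlib 3.10.9 in Python 3.11.15.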

Additional observations from a re-analysis of the deposited data

Results flagged for a closer look

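In 8 of 136 groups of 4 arrays, 1 array lay far from the rest by Dixon's ratio of its gap to the group's range; chance marks about 1 group in 20, or 7 here. In the TNF-/- arrays this was the case for Bpnt1 in array 3 (8.99, the others 8.82), Ints12 in array 3 (7.71, against 7.44 to 7.47), 1700016C15Rik in array 3 (3.71, against 3.82 to 3.83), D1Pas1 in array 1 (3.93, against 3.84 to 3.85) and Lpgat1 in array 1 (9.74, against 9.87 to 9.89). In the TNF+/+ arrays it was the case for Kif26b in array 4 (4.81, against 4.87 to 4.88), Nabp1 in array 4 (6.07, against 6.36 to 6.41) and Nek2 in array 1 (4.4, against 4.25 to 4.27).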

How the results depend on the processing

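Each of the 6 genes' own probe sets kept its direction under all 13 alternatives run for it. The genes were chosen with this contrast known and their groups did not overlap, so leaving out arrays could not reverse a direction. Catspere2 lay between 1.09 and 1.21, Lin9 between 0.33 and 0.43 and Bpnt1 between -0.67 and -0.48. Lyplal1 lay between 0.46 and 0.58, Ints7 between -0.50 and -0.38 and A330023F24Rik between -0.45 and -0.38. The probe set shared by Mir29b-2 and A330023F24Rik changed sign, to -0.020, without TNF+/+ arrays 3 and 4; the cause was not tested. The 29 probe sets called by limma (13 higher, 16 lower) became 63 when only probe sets with 1 symbol were tested (42 higher, 21 lower), 53 by SAM (32 higher, 21 lower), 0 by limma with a replicate block (4025 had an unadjusted p under 0.05), 0 by limma when TNF+/+ arrays 3 and 4 were left out (3566 had one) and 1 to 20 with 1 array left out, the 1 being without TNF+/+ array 3. Same-numbered arrays deviated together by r = 0.07 to 0.11, and no label ties them; the replicate block changed no call in the stretch or the lists, where none was made. No gene of the stretch or of the partner lists passed under any alternative run. At an unadjusted p under 0.05 the stretch count of 22 ran from 15 to 28 with 1 array left out. The 15 (10.5%, against 9.13% of all genes) was without TNF-/- array 4. The 28 (19.6%, against 12.4% of all genes) was without TNF+/+ array 2. Without TNF+/+ arrays 3 and 4 the count was 17 of 143 (11.9%, against 9.1% of all genes). The partner count of 11 was 6 after quantile normalization, 6 without dim probe sets (which also drops genes) and 7 without TNF+/+ arrays 3 and 4. It was 2 to 15 with 1 array left out. The shares of all genes were 9.86%, 13.2% and 9.1% in those settings in turn, and 7.76% to 12.9% with 1 array left out. Of the 59 other named genes, the call changed for Tnf alone, which failed with the block, without TNF+/+ arrays 3 and 4 and without any one array except TNF+/+ array 2. The rest were not called with all arrays and so had no call to lose. Some of their differences changed sign, those of Cr1l and Plxna2 in 8 settings each, and others, such as those of Tatdn3 and Tgfb2, never did. SAM among stretch and list genes was added after the data were seen. The 10 genes most like Catspere2 all kept an r of at least 0.8 in size with any one array left out, and 8 did so by Spearman's rho. They were picked as the extremes of r on the same arrays, so this outcome was largely set by their choice. With 4 arrays per group, precision is set by their number.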
